A study of Mus musculus with 2 samples.

Results

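The transcripts described here are 3' partial chains: multi-exon transcript models whose introns are the last introns of an annotated transcript, with 1 or more introns missing at the 5' side. They were selected by TALON's class for such models (incomplete splice match, subtype Suffix), matched between libraries on gene and intron chain, and kept when each library held at least 10 reads. This gave 451 chains in 353 genes, out of 6920 multi-exon chains of any class with that many reads in each library. For 14 of the 451, no annotated transcript of the gene with more introns ended in the chain, so their missing introns were not counted. Each library held far more 3' partial chains, 23320 in replicate 1 and 22812 in replicate 2, of which 67.2% and 67.6% had a single read. The 451 chains held 17509 and 16036 reads, which was 30.01% and 28.94% of all 3' partial reads and 2.97% and 3.02% of all multi-exon reads. The data are long-read RNA sequencing of hippocampus from female B6CASTF1/J mice, a hybrid of a C57BL/6 and a CAST/EiJ parent, at 2 months of age, with 2 µg of RNA per library. All animals carried the same hybrid genotype with no treatment named, so there is 1 group with 2 libraries. They are labelled biological replicates 1 and 2 from separate tissue samples under 1 donor entry. Whether each sample is 1 animal is not stated, so the spread between them may be partly technical.

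The libraries held 826596 and 745492 reads without spike-ins. Markers of hippocampal neurons and of glia were present: Slc17a7 (the glutamate transporter VGLUT1) stood at 1205 and 1182 reads per 1000000 (CPM), Prox1 (dentate granule cells) at 13.3 and 25.5, and Mbp (myelin) at 1601 and 1816. Ttr, a choroid plexus transcript, was at 328 and 176 CPM, Kl, also expressed in choroid plexus, was at 9.68 and 8.05, and Aqp1 and Otx2, further genes of that tissue, had no read.

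In long-read cDNA sequencing, reverse transcription is usually primed at the poly(A) tail and runs towards the cap. A chain that lacks its upstream introns can come from a transcript that starts at a promoter inside the gene, from an RNA that was cut before it was copied, or from a reverse transcriptase that stopped early. It can also come from an RNA in which an upstream intron was kept. Internal promoters are well known in brain genes, where they give proteins that lack an amino-terminal domain. The class of the model alone does not separate these sources, and which of them applies was not tested.

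Reads chose the chains, so read counts are given as a description. At the lower limit, 63 chains had exactly 10 reads in their lower library, and 70 further 3' partial chains stopped at 9. The higher library of these had a median of 13 reads inside the limit and 12 outside. Another 24 chains with enough reads were 3' partial in 1 library only and were left out. Shares carry exact 95% Clopper-Pearson intervals in the plots and cover counting error only, since the reads have no molecular identifiers.

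The deposited model has 1 start position per chain and library, and that position was seldom free. Of the 451 chains, 397 (88.0%) had their 5' end exactly on an annotated exon boundary in both libraries. The 5' end was the same base in both libraries for 335 chains (74.3%), and 330 of these sat on a boundary. Over all 3' partial models, 1876 in replicate 1 and 1851 in replicate 2 ended on no boundary. Of these, 804 and 736 lay 1 to 100 bases from a boundary of the gene, and 241 and 221 lay 101 to 500 bases from one. Beyond 500 bases there were 831 and 894. The number at 401 to 500 bases was 34 and 30, against 148 and 150 at 501 to 600 bases. The number thus rose abruptly past 500 bases, and whether ends nearer to a boundary were set onto it when the models were made was not tested. The same base in both libraries mostly records the same annotated boundary, and the spread of read starts within a library could not be measured.

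**Figure D1:**
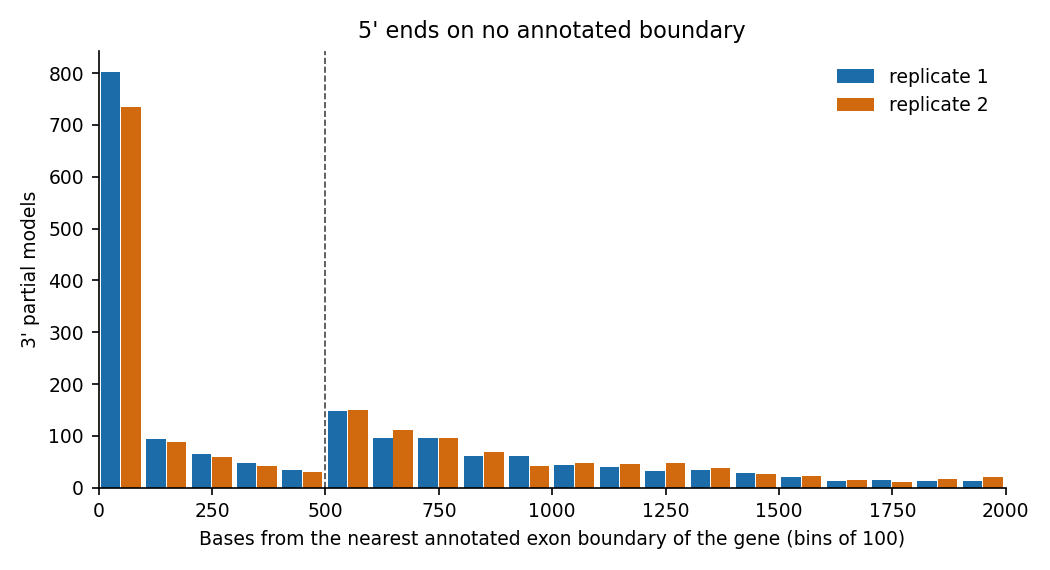
Number of 3' partial models of each library (blue, replicate 1; orange, replicate 2) whose 5' end lies on no annotated exon boundary, against the distance in bases to the nearest boundary of the gene, in bins of 100 bases up to 2000. The dashed line marks 500 bases: the bin before it holds 34 and 30 models and the bin after it 148 and 150.

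The junctions where leading chains stop are shown as spliced sequence of the annotated parent, from GENCODE M21 transcripts on GRCm38 (mm10). Each has the last 30 bases of the missing exon in lower case and the first 30 bases of the first kept exon in capitals, both coding. They are shown because the chain's model begins at the first capital in both libraries.
Ndufa4: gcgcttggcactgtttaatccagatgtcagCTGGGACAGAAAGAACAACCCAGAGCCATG
Pink1: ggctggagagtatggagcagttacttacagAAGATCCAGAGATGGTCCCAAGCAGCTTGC
Gpm6a: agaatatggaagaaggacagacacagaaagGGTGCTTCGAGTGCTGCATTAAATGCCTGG
Hnrnpa2b1: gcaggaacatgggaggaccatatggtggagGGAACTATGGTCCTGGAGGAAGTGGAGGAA
Psma7: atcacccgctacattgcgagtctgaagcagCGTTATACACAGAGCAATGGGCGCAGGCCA
In the Ndufa4 line the missing exon ends at base 11906020 of chromosome 6 and exon 3 begins at 11905262 on the minus strand. The Pink1 chain begins at 138318078 of chromosome 4 (exon 4, minus strand), and the Gpm6a chain at 55037328 of chromosome 8 (exon 2, plus strand). The Hnrnpa2b1 chain begins at 51463493 of chromosome 6 (exon 10, minus strand) and the Psma7 chain at 180038187 of chromosome 2 (exon 4, minus strand).

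Among the 451 chains, the share of the gene's multi-exon reads held by a chain had a median of 13.5%, with quartiles of 5.10% and 31.9% and a range of 0.439% to 98.8% (mean of 2 libraries). The median was 12.2% in replicate 1 and 14.3% in replicate 2, and the SD of a chain's share between libraries had a median of 1.29 percentage points. In both libraries 59 chains held at least 50% of their gene's multi-exon reads, and 106 held under 5%. The level of a chain had a median of 24.2 CPM. Of the 437 chains with an annotated parent, 140 (32.0%) had more reads than that parent in both libraries, and for 53 the parent had no read in either. The parent is the annotated transcript with the most reads among those whose chain ends in the partial chain.

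Several of the 20 chains with the most reads come from genes of mitochondrial proteins. The Ndufa4 chain, from the gene of a subunit of the respiratory chain, kept 2 exons of the 4 of Ndufa4-205 and had 877 and 712 reads. These were 69.5% and 68.1% of the gene's multi-exon reads (68.8% ± 1.01, SD, n = 2), against 382 and 322 reads for the full chain. Only 2 reads in each library kept 3 exons, so the reads that follow this transcript fell into 2 lengths. The missing exons hold 53.3% of the coding bases, the start codon included. Pink1, the kinase that marks damaged mitochondria for removal, had a 5-exon chain with 266 and 279 reads, 59.7% ± 1.92 (SD, n = 2) of the gene. The full 8-exon chain had 124 and 115 reads, and the lengths in between had 8 and 5 reads (6 exons) and 24 and 26 reads (7 exons).

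Subunits of ATP synthase showed different forms of partial chain. The Atp5b chain, from the catalytic beta subunit, kept 2 of 10 exons with 453 and 329 reads, 37.0% and 31.9% of the gene, its missing exons hold 81.1% of the coding bases, and its ends were 84 bases apart with a different kind of boundary in each library. The Atp5j chain, from coupling factor 6, had 184 and 167 reads, 64.8% and 65.0% of the gene, and lacked no coding base. The Atp5f1 chain, from the subunit b of the stalk, had 169 and 164 reads, 87.1% and 91.1% of the gene, while its annotated parent had no read. It too lacked no coding base of that parent. The Atp5f1 model began at an annotated transcript start in each library (Atp5f1-202, Atp5f1-203), 17 and 13 bases from the RefSeq gene start. A transcript that begins there has the leading introns of the chain, so the chain is partial only against a longer annotated transcript without reads. Ndufs7, a complex I subunit, had 151 and 127 reads in a 2-exon chain at 53.0% ± 1.33 (SD, n = 2) of the gene. Ssbp1, which binds single-stranded mitochondrial DNA, had 155 and 133 reads in a 2-exon chain at 80.6% ± 2.01 (SD, n = 2), and neither library had a read with exactly 1 more exon of the same parent.

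How reads of near-identical gene copies were assigned is not stated, so counts of Ndufa4 and other genes with processed copies are uncertain. Hnrnpa2b1, an RNA-binding protein of splicing and RNA transport, had 221 and 160 reads in a 2-exon chain at 43.7% ± 5.54 (SD, n = 2). That chain begins in exon 10, and 94.2% of the coding bases lie upstream of it.

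**Figure D2:**
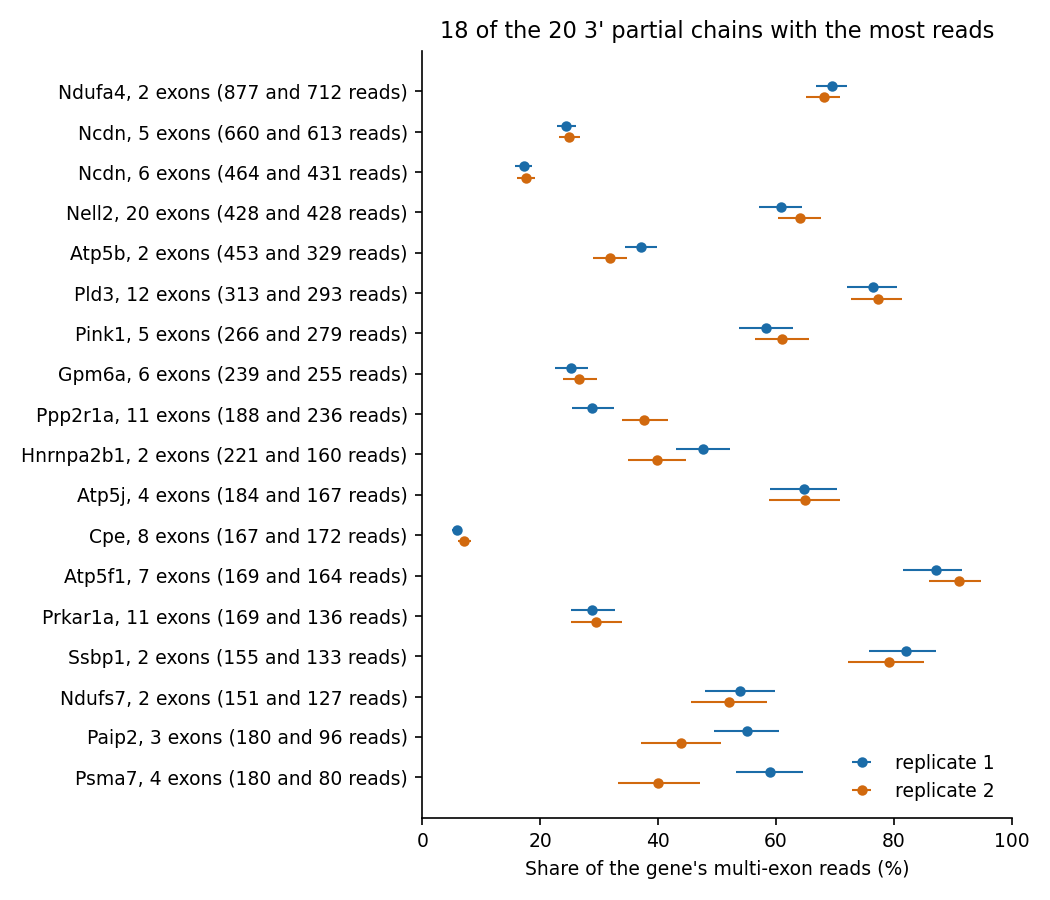
Share of the gene's multi-exon reads held by 18 of the 20 3' partial chains with the most reads, in percent, with exact 95% Clopper-Pearson intervals (blue, replicate 1; orange, replicate 2); reads of each library stand beside the name. Mean shares run from 6.49% for Cpe to 89.1% for Atp5f1, and the intervals of the 2 libraries do not overlap for Psma7 and Ppp2r1a.

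In other genes the reads were spread differently over the lengths. Ncdn, a cytoplasmic protein of neurons, had 5 chains: 660 and 613 reads with 5 exons, 464 and 431 with 6, and 69 and 66, 48 and 53, and 37 and 37 with 2, 3 and 4. The full 7-exon chain led with 871 and 757 reads. Every length of Ncdn was thus filled, with a step between 4 and 5 exons. Nell2, a secreted protein with EGF-like repeats, had 428 reads in each library in a 20-exon chain, 62.4% ± 2.32 (SD, n = 2) of the gene, against 85 and 71 reads for the full 21 exons. The lengths of 2 to 18 exons had at most 9 reads each, and 19 exons had 10 in each library. Pld3, a lysosomal member of the phospholipase D family, had 313 and 293 reads in a 12-exon chain (76.9% ± 0.552, SD, n = 2) against 39 and 42 in the full 14 exons. The Nell2 and Pld3 models begin exactly at the annotated starts of Nell2-204, 292 bases upstream of the acceptor, and Pld3-207, 159 bases inside the exon, and lack no coding base of their parents.

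Gpm6a, a membrane glycoprotein of neurons, kept all but the first of 7 exons in 239 and 255 reads (25.9% ± 1.05, SD, n = 2), lacking 4.44% of the coding bases. Cpe, a processing enzyme of neuropeptides, also lacked a single exon, in 167 and 172 reads, which was 6.49% ± 0.883 (SD, n = 2) of a gene whose full chain had 2612 and 2186. Ppp2r1a, the scaffold subunit of phosphatase PP2A, had 188 and 236 reads in an 11-exon chain and Prkar1a, a regulatory subunit of protein kinase A, 169 and 136 in another chain of that length. The Ppp2r1a share was 28.9% in replicate 1 and 37.7% in replicate 2, a difference that did not pass the test given below (Fisher's exact test, adjusted p = 0.309).

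Large shares were also found in genes with fewer reads. Psmc2, an ATPase of the proteasome, had 89 and 80 reads in a 12-exon chain, 95.7% and 97.6% of the gene, and no read on the parent. Pde1a, a calmodulin-dependent phosphodiesterase, had 101 and 66 reads (87.8% and 85.7%) and likewise no read on the parent. Shank3, a scaffold of the postsynaptic density, had 31 and 24 reads in a 2-exon chain, 91.2% and 88.9% of the gene, with 1 and 0 reads on the full 22-exon parent. With all reads of the gene as denominator, models of a single exon included, the Shank3 share was 43.1% and 38.7%. Map1a, a microtubule-associated protein, had 44 and 54 reads in a 3-exon chain (80.0% and 87.1%, or 43.6% and 52.4% of all reads of the gene). In these 4 genes a partial chain outnumbered all other multi-exon reads, at totals of 27 to 115 such reads per gene and library.

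Some genes spread their partial reads over several lengths. Hsp90ab1, a cytosolic chaperone, had 5 chains with 12 to 40 reads against 1278 and 1143 in the full 11 exons. A chain was counted as standing out when its reads were at least 5 times those of the partial chains with 1 exon more and 1 exon fewer in both libraries, a measure chosen after the data were seen. By this count 238 chains stood out, 195 did not and 18 had no such neighbour, and 16 of the 20 chains with the most reads stood out.

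**Figure D3:**
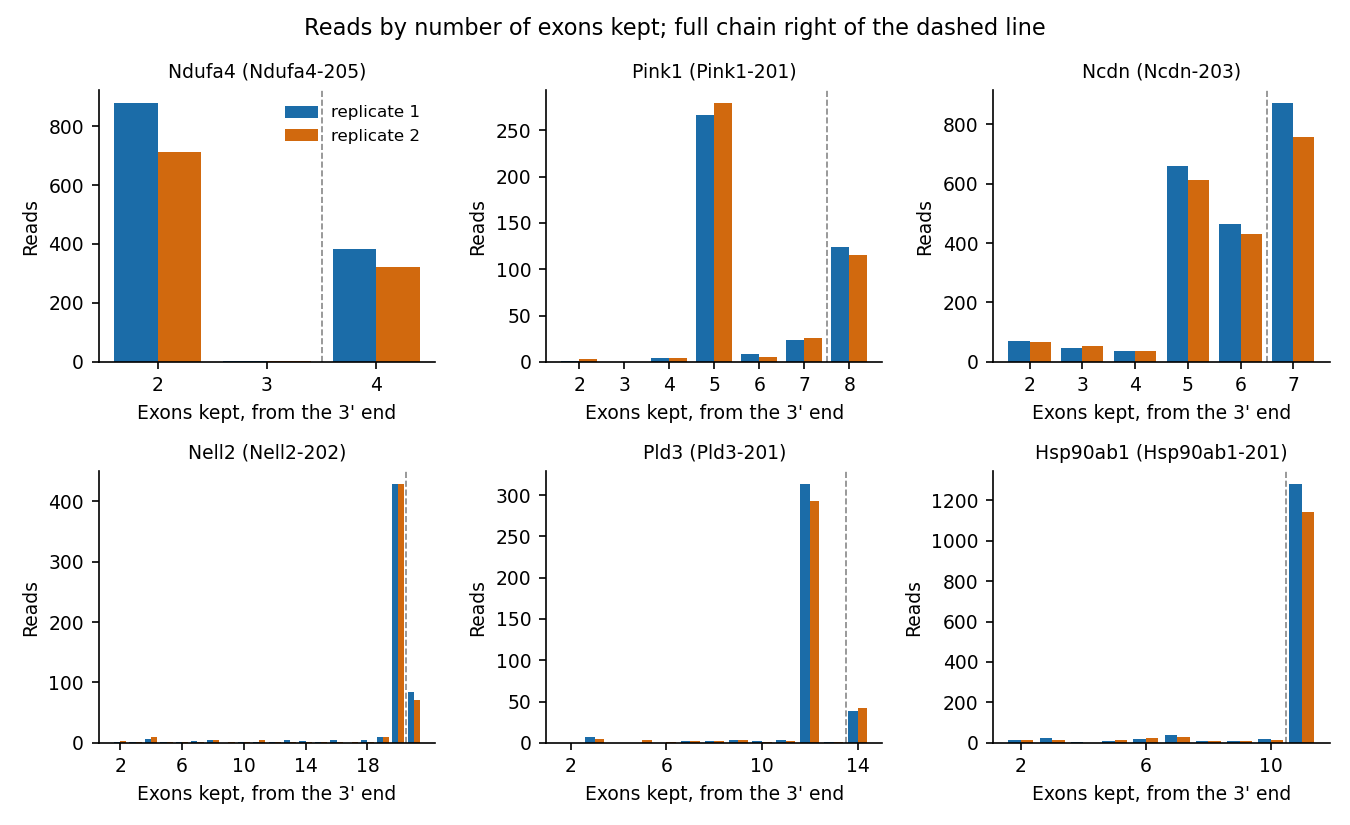
Reads (vertical axis, linear) against the number of exons kept from the 3' end for 6 genes and the named parent transcript, in replicate 1 (blue) and replicate 2 (orange); the bars right of the dashed line are the full chain. Ndufa4, Pink1, Nell2 and Pld3 have most partial reads in 1 length, while Ncdn fills every length and Hsp90ab1 has low bars at several lengths beside 1278 and 1143 full-chain reads.

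The 5' ends were sorted by what the annotation has at that base. In both libraries 203 chains (45.01%) began at the 5' boundary of an internal exon, 134 (29.7%) at the start of an annotated transcript, 28 (6.21%) at another kind of boundary and 19 (4.21%) on no boundary. The kind differed between libraries for 67 (14.9%). All 3' partial models of annotated genes, single reads included, were also sorted in each library alone. Of these, 59.5% and 60.8% began at the 5' boundary of an internal exon. A further 23.6% and 22.6% began at a transcript start, and 8.06% and 8.12% on no boundary. For comparison, 5' partial chains (models that lack introns at the 3' side, 38 chains) began at a transcript start in 97.4%, and unannotated full-splice chains (575 chains) in 96.2%. No test was made of these shares, since the class of a 3' partial chain requires that upstream introns are missing. The 3' ends, which the class does not use, lay on an annotated transcript end in both libraries for 391 of the 451 chains (86.7%). They were the same base in both for 75.4%, against 78.95% in 5' partial and 74.96% in unannotated full-splice chains.

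**Figure D4:**
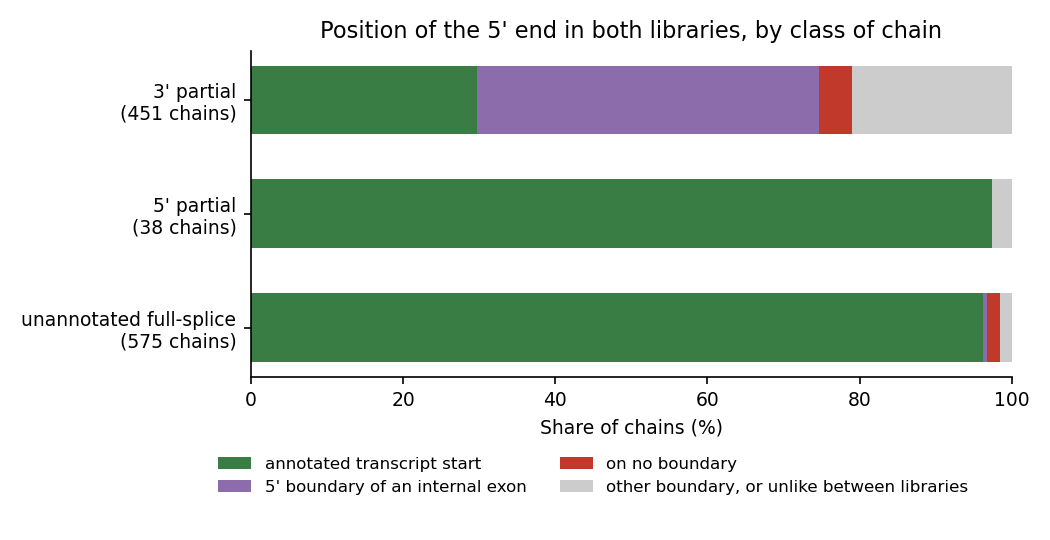
Share of chains (percent) by the position of the 5' end in both libraries, for 451 3' partial, 38 5' partial and 575 unannotated full-splice chains with at least 10 reads in each library. Annotated transcript starts make up 29.7% of 3' partial, 97.4% of 5' partial and 96.2% of unannotated full-splice chains.

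Chains at transcript starts lacked less than chains at internal exon boundaries. The median number of missing introns was 1 for the former and 5 for the latter, and exactly 1 intron was missing in 73 of 127 (57.5%) and 42 of 200 (21%) with a parent. The missing exons held a median of 1.16% of the coding bases for chains at transcript starts and 42.2% for chains at exon boundaries. Their shares of the gene were closer, with medians of 14.56% and 11.99%. Of those with a partial neighbour, 78 of 126 chains at transcript starts (61.9%) and 99 of 198 at exon boundaries (50%) stood out. At 39 of the 134 transcript starts an annotated transcript begins whose own introns are the leading introns of the partial chain. At 92 the transcripts that begin there have other introns, and at 3 they have none.

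**Figure D5:**
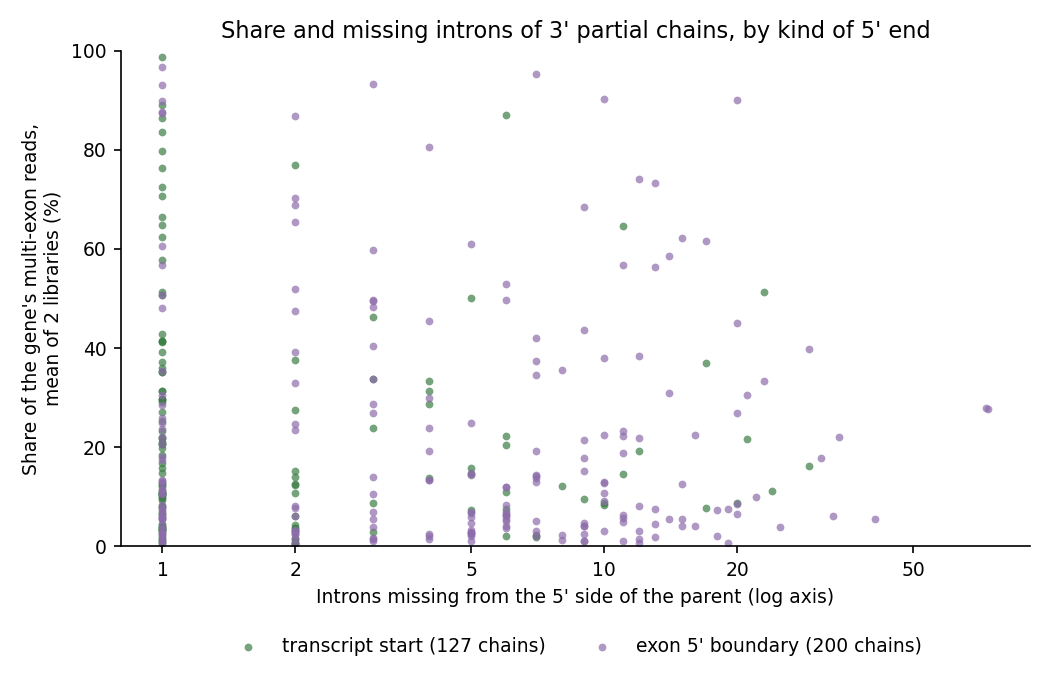
Mean share of the gene's multi-exon reads (percent) against the number of missing introns (log axis), 1 point per chain with a parent, for 127 chains that begin at a transcript start (green) and 200 that begin at an internal exon boundary (purple). Both kinds cover nearly the whole range of shares at 1 missing intron, and the chains with 10 or more missing introns are mostly purple.

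Not all of these chains begin inside their gene. In 43 (9.53%) the 5' end lay within 500 bases of the most upstream annotated start of the gene in both libraries, and in 20 within 50 bases. In 47 chains the first exon of the model covered the whole parent intron in front of the first kept exon in both libraries. Since model ends sit on annotated boundaries, the reads themselves need not cross these introns. The covered introns had a median length of 237 bases, and 14 were longer than 500 bases. Rpl6, a ribosomal protein, had such a chain with 36 and 32 reads (21.1% and 20.3%) and a covered intron of 853 bases. Prrt1, a membrane protein of AMPA receptor complexes, had 38 and 31 reads (28.6% and 30.7%) and a covered intron of 928 bases. Ogt, the enzyme that adds O-GlcNAc to proteins, had 19 and 20 reads (35.2% and 39.2%) and a covered intron of 107 bases.

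In 54 chains (11.97%) the 5' end lay upstream of every annotated form of the first exon in both libraries. These forms are the exons of the gene that end where the chain's first intron begins, first exons of transcripts included. Of the 54 chains, 44 were at a transcript start. Among 345 chains whose gene matched the RefSeq promoter table by symbol or synonym, 28 (8.12%) began within 50 bases of the RefSeq gene start in both libraries and 58 within 500. RefSeq promoters (GRCm38.p6) of 3 of these genes are shown as examples of a partial chain that starts there with no annotated exon in the 200 bases before. Others of the 28 also have none there and are not shown. The 200 bases before the RefSeq start are in lower case and the first 20 bases from it in capitals.
Plekhm2, chr4:141664127-141664346, minus strand: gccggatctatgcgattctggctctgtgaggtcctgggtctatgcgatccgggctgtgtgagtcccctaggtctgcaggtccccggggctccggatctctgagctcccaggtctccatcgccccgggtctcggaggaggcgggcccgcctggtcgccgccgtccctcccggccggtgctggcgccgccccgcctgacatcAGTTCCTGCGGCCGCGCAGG
Eps15, chr4:109342856-109343075, plus strand: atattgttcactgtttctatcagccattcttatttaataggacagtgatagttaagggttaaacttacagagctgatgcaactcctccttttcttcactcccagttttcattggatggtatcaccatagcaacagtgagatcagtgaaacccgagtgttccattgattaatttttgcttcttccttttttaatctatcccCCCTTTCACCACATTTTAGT
Ogt, chrX:101639851-101640070, plus strand: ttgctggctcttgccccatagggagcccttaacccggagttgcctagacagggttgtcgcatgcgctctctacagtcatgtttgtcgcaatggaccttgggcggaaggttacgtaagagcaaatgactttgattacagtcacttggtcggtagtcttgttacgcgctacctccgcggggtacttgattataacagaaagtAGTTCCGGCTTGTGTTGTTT
Plekhm2, a lysosomal adaptor for kinesin, had 23 and 19 reads in a 19-exon chain (31.3% ± 0.254, SD, n = 2), with 22 CpG in the window. Eps15, an endocytic adaptor, had 35 and 18 reads in a 12-exon chain, with 1 CpG and a GC share of 37.3%. The Eps15 chain has no annotated parent, and 6 annotated starts of the gene lie more than 500 bases upstream of it. Ogt had 12 CpG and a GC share of 50.5%. The 28 chains hold 27 such promoters, since a pair of Zfr chains share one, and for 19 of the 28 no annotated start of the gene lies more than 500 bases upstream. Over the 27 promoters the median was 60.9% GC and 15 CpG per 220 bases, against 53.2% and 5 over all 32851 RefSeq promoters. The 27 are of genes with reads in both libraries, and the full set was not limited to such genes or matched for expression. The letters TATAAA were searched on the gene's strand from 40 to 20 bases before the start. They were in 3.70% of the 27, which is a single promoter, and in 1.87% of all.

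For the 19 chains on no boundary in both libraries the 5' ends differed between libraries by a median of 111 bases, with a range of 0 to 3878, and 5 of the 19 were the same base. Spliced windows from GENCODE M21 are shown for 3 of them with ends 0 to 3 bases apart in coding sequence, with 30 bases before the end in lower case and 30 from it in capitals.
Rasgrf1, chromosome 9, base 89953863, plus strand, both libraries: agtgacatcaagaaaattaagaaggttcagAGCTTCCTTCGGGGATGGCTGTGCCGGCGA
Il16, chromosome 7, base 83660963, minus strand, both libraries: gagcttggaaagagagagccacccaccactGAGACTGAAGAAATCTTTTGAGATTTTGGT
Chrnb2, chromosome 3, base 89760889, minus strand, replicate 1: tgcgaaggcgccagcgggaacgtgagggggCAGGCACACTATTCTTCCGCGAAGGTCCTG
Chrnb2, chromosome 3, base 89760892, minus strand, replicate 2: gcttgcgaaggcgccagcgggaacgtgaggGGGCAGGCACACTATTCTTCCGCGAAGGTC
Rasgrf1, a calcium-dependent activator of Ras, had 75 and 90 reads (19.6% and 21.9%) and began 6 bases inside an annotated exon, directly after the letters CAG. Il16, whose neuronal form is a scaffold protein, had 14 reads in each library and began 322 bases into an exon. Chrnb2, the beta-2 subunit of nicotinic receptors, had 21 and 16 reads (43.8% and 51.6%) and began about 750 bases into an exon, with ends 3 bases apart. In contrast the Map1a ends were 3878 bases apart in an exon of 8104 bases, and those of Ank2 1746 in an exon of 6198.

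Over all 3' partial models that ended on no boundary inside an exon, the base before the end was G in 67.8% (n = 1016) and 66.7% (n = 974), against 27.6% at all coding positions of the parents and 17.9% before RefSeq gene starts. The letters AG stood before the end in 50.6% and 50.3%, against 8.50% of coding positions. With ends at least 15 bases inside an exon of any annotated transcript of the gene, AG preceded 31.2% (n = 718) and 34.5% (n = 715). This limit does not remove ends that lie close to an exon boundary of another transcript of the gene. A pyrimidine followed by a purine at the end, the usual pair at a transcription start, was found in 8.76% and 10.3%, against 46.3% at RefSeq gene starts and 22.2% of coding positions. Of all 1876 and 1851 models on no boundary, 444 and 394 ended 1 to 9 bases from one. Among the chains with enough reads, 20 and 26 ends lay inside an exon on no boundary, with G before 55% and 69.2% and the pyrimidine-purine pair at 15% and 19.2%.

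The 5' ends of 49 chains were more than 500 bases apart between libraries, and in 34 of these the kind of end differed. The largest distance was 5899 bases in Paip2, an inhibitor of translation, whose 3-exon chain had 180 and 96 reads. Syp, the vesicle protein synaptophysin, had 91 and 84 reads in a 2-exon chain with ends 4487 bases apart. Ankrd11, a chromatin regulator, had 23 and 31 reads and ends 5144 bases apart. Their shares were 55.0% and 43.8% for Paip2, 11.1% and 12.4% for Syp, and 31.5% and 36.0% for Ankrd11.

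The chains had a median of 6 exons (2 to 43), and lacked a median of 3 introns (1 to 74) and 646 bases of the parent. Exactly 1 intron was missing in 137 of 437 and 10 or more in 94. The first kept exon had a median annotated length of 174 bases. The annotated start codon lay in a missing exon for 339 chains, in the first kept exon for 69 and further downstream for 20. For the 339, the missing exons held a median of 35.3% of the parent's coding bases, and in 123 (36.3%) more than 50%.

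In the lists of genes by function, the number of genes with a chain is read beside 4.80%, the share of the 7354 genes with at least 10 multi-exon reads in each library that had one. A gene with many reads passes the minimum with a small share, so these counts rise with the level of the genes, which was not corrected for. Of 21 genes of synaptic vesicle release 8 had a chain, with 14 chains at a median share of 3.89%. They include Vamp2, the vesicle SNARE, with 35 and 31 reads (3.51% and 3.88%), and Bsn, an active zone scaffold, with 14 and 20 reads (50% and 54.1%, or 13.9% and 21.1% of all reads of the gene). Of 16 ion pumps and exchangers 3 had a chain, with 11 chains at a median of 1.22%. Of 21 glial genes 7 had one, with 11 chains at a median of 3.18%, among them Sparcl1, an astrocyte protein of the matrix, with 62 and 61 reads (5.741% and 5.398%), and the chaperone Clu, with 40 and 23 (9.59% and 6.52%). The list also counts Cpe, which neurons express too. Of 22 postsynaptic genes 3 had one, with 7 chains at a median of 8.32%, and Camk2b, the beta subunit of the kinase CaMKII, had 92 and 87 reads in an 11-exon chain (11.2% and 10.2%).

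Of 21 spectrins, ankyrins and related genes 6 had a chain, with 11 chains at a median share of 7.54%, lacking a median of 13 introns. Of 19 kinesin, dynein and dynactin genes only Dync1h1, the heavy chain of dynein, had one: 43 exons in 19 and 30 reads (16.5% and 27.5%), with 34 introns missing. A 26-exon chain of Dctn1, a dynactin subunit, had 112 and 92 reads but was left out, since it was 3' partial in replicate 1 and of another class in replicate 2. Of 27 genes of glycolysis and the TCA cycle 4 had a chain, at a median share of 2.12%, and 5 of their 7 chains began at a transcript start. Aldoa, a glycolytic aldolase, had 49 and 41 reads in a 2-exon chain and 42 and 32 in a 7-exon chain, beside 2083 and 1768 in the full chain. Of 26 genes listed as having known internal or alternative promoters 4 had a chain (Rtn1, Ank2, Olfm1 and Map2). None of the 4 chains began at an annotated transcript start in both libraries. A read with every intron of an annotated transcript, also one from an internal promoter, is of another class and is not counted. Rtn1, a reticulon of the endoplasmic reticulum, had 35 and 21 reads in a 7-exon chain that began at an exon boundary (3.54% and 2.54%). A chain was also found in 2 of 18 genes of the clathrin coat and its adaptors, 3 of 18 of the respiratory chain and ATP synthase, 3 of 18 chaperones, 5 of 19 ribosomal proteins and translation factors, and 2 of 19 proteasome and ubiquitin genes. The lists do not hold every gene of their kind: Atp5j, Atp5f1, Ndufs7, Psma7, Psmc2 and Rpl6, described above, are in none of them.

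The share of each chain in its gene was compared between the libraries with a two-sided Fisher's exact test, adjusted by Benjamini-Hochberg over all 7791 multi-exon chains of any class with at least 20 reads together. The test compares 2 libraries, not conditions. It takes reads as independent. It called 11 chains at an adjusted p under 0.05, or 0.141% of those tested, and 2 of the 451 3' partial chains (0.443%). At an unadjusted p under 0.05 there were 24 of the 451 (5.32%), against 4.31% of all chains. The 4-exon chain of Psma7, a proteasome subunit, had 180 of 305 multi-exon reads in replicate 1 and 80 of 200 in replicate 2, or 59.0% and 40% (Fisher's exact test, adjusted p = 0.0288). The Psma7 call was lost with no minimum of reads (Fisher's exact test, adjusted p = 0.401), where more chains are tested and the shares are the same. The 4-exon chain of Jph4, a junctophilin of neurons, had 97 of 287 and 113 of 217, or 33.8% and 52.1% (Fisher's exact test, adjusted p = 0.0288). The Jph4 ends were 76 bases apart on no boundary. The partial chain with 1 exon more had 48 and 26 reads, and that with 1 exon fewer had 39 and 0. With all reads of the gene as denominator the Jph4 shares were 32.0% and 46.5% and the call was lost (Fisher's exact test, adjusted p = 0.222), as it was with no minimum of reads (adjusted p = 0.401 by the same Fisher's exact test).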

How the data were processed

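Per the file headers and the notes deposited with them, each library has whole-number counts of long reads per TALON transcript model on mm10 with GENCODE M21, with no normalization. Only models with at least 1 read are listed. The deposited exon numbers, lengths and model coordinates were used as they stand. No source used here names the aligner or the versions. From these counts, models of more than 1 exon were matched on gene and intron chain. Boundaries, parents, start codons and spliced windows came from GENCODE M21, and promoters from RefSeq. GC and CpG were counted from 200 bases before to 20 after the RefSeq start, in place of a planned wider window that the promoter table does not hold. Levels are counts per 1000000 reads without spike-ins. Only Fisher's exact test was used, adjusted by Benjamini-Hochberg. The test was checked on simulated counts. The members, gene lists and the rule for named genes (most reads, highest shares, upstream ends, closest and farthest ends, most chains per gene, up to 3 per list, called chains), as well as the count of chains that stand out from their neighbours and of covered introns, were chosen with earlier results of these data known; Rasgrf1, Il16, Chrnb2, Plekhm2, Eps15, Ogt and Bsn were chosen later for their sequences or values. Python 3.11.15 (pandas 2.3.3, numpy 2.4.6, scipy 1.17.1, matplotlib 3.10.9) and R 4.3.3 with edgeR 4.0.16 (TMM scaling only) were used. Some genes among the leading chains are not reported here.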

Additional observations from a re-analysis of the deposited data

How the results depend on the processing

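No paired analysis was possible because the series has 1 group. With at least 5 reads in each library there were 1185 chains at a median share of 8.14% and 12.2 CPM, and with at least 20 reads 166 chains at 20.6% and 45.2 CPM, since the minimum chooses chains by their reads. Each library taken alone gave 632 to 683 chains, with a median share of 11.7% in both cases (11.67% and 11.75%). Of these chains 14.4% to 17.1% lay upstream of every annotated form of the first exon, and the median level was 19.4 to 20.1 CPM. The upstream share of 17.1% was without replicate 2. With full-splice reads plus the chain itself as denominator the median share was 16.9%. Against the acceptor of the parent's first kept exon alone, 22.4% of chains were upstream. Of the 2 chains called between the libraries, 0 remained with no read minimum (adjusted p = 0.401 for each) or at an adjusted p under 0.01, and 1 with all reads of the gene as denominator. The median distance of 5' ends stayed at 0 under its 5 alternatives. The share within 50 bases ran from 79.9% to 80.7% under other read minimums, 3 or more exons, or a single strand, and was 76.7% within 10 and 81.8% within 100 bases. Chosen after the data were seen, a factor of 3 or 10 over neighbours gave 295 or 179 chains in place of 238. Also chosen then, 403 chains began within 5 bases of a boundary of their own gene. The 397 counted exact boundaries of any gene on the strand, so the sets of boundaries differ too. Depth limits all of this: 1 read is worth 1.21 and 1.34 CPM.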
